A study of Homo sapiens with 6 samples.

Results

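The kinases that phosphorylate SR proteins (CLK1, CLK2, CLK3, CLK4, SRPK1, SRPK2 and DYRK1A) and the splicing regulators TRA2A and TRA2B were followed by gene name through a table of 58302 genes, where all 9 had a row. RNA was sequenced from MDA-MB-231-DR, a derivative of MDA-MB-231, an established triple-negative breast cancer line, made resistant to doxorubicin. The labels name no treatment for 3 control libraries, and the other 3 came from cells given cyperotundone (CYT), a compound from Cyperus rotundus. All 6 libraries came from the resistant line, which the study's methods keep in medium with a low concentration of doxorubicin. The dose and duration of CYT for these libraries are not given in the sources used here. The methods say of the study's data in general that they come from independent experiments, without naming the sequencing, and the labels do not say whether the replicates were separate cultures, so p-values measure the spread between these libraries, which may be technical.

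SR proteins direct the choice of splice sites, and their arginine-serine (RS) domains are phosphorylated in stages. SRPK1 and SRPK2 act mainly in the cytoplasm, where phosphorylation promotes import into the nucleus. CLK1 to CLK4 act in the nucleus, where further phosphorylation releases SR proteins from nuclear speckles. DYRK1A is a related dual-specificity kinase that also phosphorylates splicing factors. TRA2A and TRA2B have RS domains themselves and bind purine-rich exon sequences. Transcripts of CLK and TRA2 genes are themselves spliced in coding and non-coding forms, and a count per gene does not separate these.

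Of the 9 genes, CLK1 and CLK4 rose, CLK2 and TRA2B fell, and CLK3, SRPK1, SRPK2, DYRK1A and TRA2A did not pass the test. All 9 were among the 15572 genes tested with edgeR's quasi-likelihood test, in which a gene was called at a Benjamini-Hochberg adjusted p under 0.05. The 4 calls among 9 genes (44.4%) stand against 28.6% over all genes tested. The 2 higher calls stand against 15.7% of all genes called higher and the 2 lower calls against 12.9% called lower. The same 4 genes also had an absolute log2 fold change over 1, and 27.4% of all genes met both criteria. In 5 of the 9 genes (the 4 called and DYRK1A) the 3 control and 3 CYT values did not overlap, against 46.1% of all genes. The median log2 fold change was -0.15 for the 9 genes and 0.0064 for all genes. With upper-quartile in place of TMM scaling the split became 3 higher (CLK1, CLK4 and DYRK1A) and 1 lower (TRA2B), and over all genes the split shifted the same way, from 2449 higher and 2002 lower to 2879 and 1624. The number called fell to 2 without control replicate 1 or CYT replicate 2, and to 1 without control replicate 3 or CYT replicate 3. In the same fits the share of all genes called was 18.3%, 35.6%, 17.6% and 19.8%, so without CYT replicate 2 it rose while the number among the 9 genes fell.

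**Figure D1:**
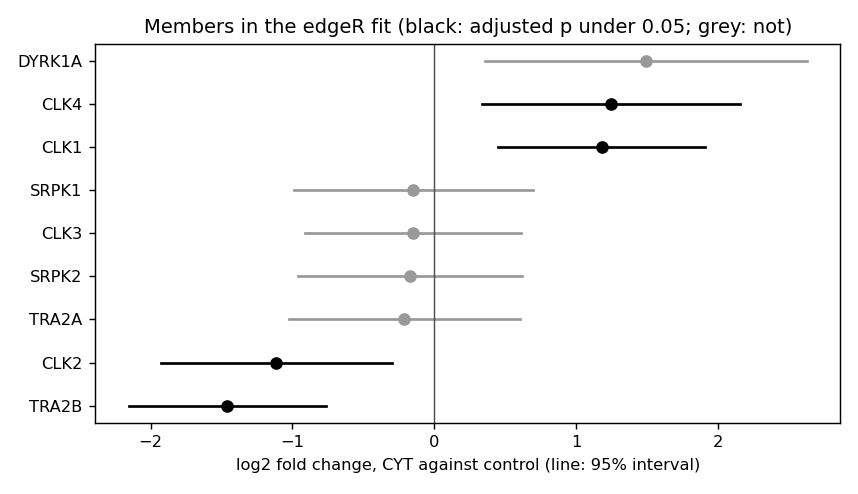
Log2 fold change of CYT against control for the 9 genes in the edgeR fit, with 95% intervals as lines and called genes in black. The intervals of CLK1 (0.45 to 1.91) and CLK4 (0.33 to 2.15) lie above 0, those of CLK2 (-1.93 to -0.30) and TRA2B (-2.15 to -0.77) below it. The interval of DYRK1A also lies above 0 (0.36 to 2.62), although its adjusted p was over 0.05.

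The libraries held from 14050849 to 17770102 counts in control and from 13056270 to 14106017 in CYT. In this paragraph CPM is a gene's count scaled to the total counts of its library, and in later paragraphs to the TMM-normalized size. Markers of the line (VIM, CD44, EGFR, CAV1 and AXL) were present at 14.6 CPM or more in every library, and ESR1, PGR, EPCAM and CDH1 at 1.22 or less. The markers of the line were lower in CYT as a sum, at 1626 to 1941 CPM against 3388 to 4015 in control, with a mean of 1007 against 2441 for VIM and 25.7 against 161 for EGFR. A list of 6 genes of the luminal line MCF7, which the study also used, summed to 222 to 398 CPM in control and 23.1 to 49.7 in CYT, in control nearly all from KRT19, while its defining markers ESR1 and PGR were near 0. Genes annotated as antisense took 0.253% to 0.291% of counts in control and 0.553% to 0.572% in CYT, and the part of these shifts in the results was not tested. Replicates correlated at 0.904 to 0.971 on the log2 scale, with CYT replicate 2 in the lowest pairs. In bulk RNA, fewer cells of a type and less RNA per cell cannot be told apart. Over all genes 2449 were called higher and 2002 lower, or 3291 and 4031 after a correction for GC content and length that was chosen after seeing the data.

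The 4 called genes are shown first by the 250 bases before their first start in RefSeq (GRCh38.p14), each written 5′ to 3′ on the strand of its gene, so that the starts of the members that moved can be compared. Capitals mark, on either strand, GGGCGG (the GC box bound by SP family factors), TGACG (the core of the cyclic AMP response element) and CACGTG (the E-box), and CCAAT and TATAAA were also searched. The windows are CLK1 at chr2:200864659-200864908, CLK4 at chr5:178627051-178627300, CLK2 at chr1:155273505-155273754 and TRA2B at chr3:185938015-185938264, all on the minus strand. The counted loci of CLK2 and CLK4 start further upstream, at 155278491 and 178630615, so their windows lie inside these loci. The windows of CLK1 and TRA2B contain the start of the counted locus.
CLK1: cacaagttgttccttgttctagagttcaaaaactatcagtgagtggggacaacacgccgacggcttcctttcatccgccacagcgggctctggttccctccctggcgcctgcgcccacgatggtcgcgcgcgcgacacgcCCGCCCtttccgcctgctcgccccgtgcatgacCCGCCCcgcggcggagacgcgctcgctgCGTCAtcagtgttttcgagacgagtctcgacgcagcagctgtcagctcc
CLK4: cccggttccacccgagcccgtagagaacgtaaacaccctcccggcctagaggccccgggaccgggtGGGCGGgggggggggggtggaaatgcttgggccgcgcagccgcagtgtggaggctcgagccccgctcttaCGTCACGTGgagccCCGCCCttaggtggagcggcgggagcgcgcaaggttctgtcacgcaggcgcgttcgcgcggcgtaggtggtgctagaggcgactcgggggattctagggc
CLK2: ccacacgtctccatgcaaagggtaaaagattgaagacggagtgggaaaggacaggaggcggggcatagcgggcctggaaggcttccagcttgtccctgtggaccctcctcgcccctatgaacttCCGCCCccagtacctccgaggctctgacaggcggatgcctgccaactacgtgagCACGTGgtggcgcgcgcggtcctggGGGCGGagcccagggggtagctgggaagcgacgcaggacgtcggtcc
TRA2B: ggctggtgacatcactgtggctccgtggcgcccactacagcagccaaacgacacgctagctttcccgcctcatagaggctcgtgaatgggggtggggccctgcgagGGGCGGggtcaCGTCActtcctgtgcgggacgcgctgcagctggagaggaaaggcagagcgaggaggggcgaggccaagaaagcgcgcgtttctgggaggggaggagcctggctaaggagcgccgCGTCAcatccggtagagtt

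GGGCGG occurred in all 4 windows and in 42.6% of 35116 promoter windows of the same length, and TGACG occurred in those of CLK1, CLK4 and TRA2B and in 21.2% of all. CACGTG occurred in those of CLK2 and CLK4 and in 6.35% of all, and in CLK4 it overlaps TGACG in the run CGTCACGTG. Neither CCAAT (32% of all windows) nor TATAAA (10.7%) occurred in any of the 4. The windows held 64.4%, 71.2%, 65.2% and 65.6% G or C for CLK1, CLK4, CLK2 and TRA2B, against a median of 58% over all windows. The genes that rose and those that fell thus had no motif of the 5 that set them apart. These are matches of letters, and the data hold no measurement of binding. RefSeq windows matched 8 of the 9 genes, with no entry for TRA2A. CLK1 has 2 starts in the table, of which the first was used.

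CLK1 (ENSG00000013441, chromosome 2, 200853009 to 200864744, minus strand, GRCh38) encodes a nuclear kinase that releases SR proteins from speckles. Its TMM-normalized level was 12.6, 14.2 and 16.1 CPM in control replicates 1 to 3, from 204, 266 and 224 counts. It was 23.0, 41.4 and 32.8 CPM in CYT replicates 1 to 3, from 326, 582 and 413 counts. Every CYT library lay above every control library, and the CYT libraries were the more spread out. The mean rose from 14.3 ± 1.73 to 32.4 ± 9.22 CPM (SD, n = 3 each), a log2 fold change of 1.18 ± 0.33 (SE) or 2.27-fold, with an edgeR adjusted p of 0.0238. The call was lost, with edgeR adjusted p of 0.0955, 0.0633, 0.0708 and 0.0600, without control replicate 1, 2 or 3 or CYT replicate 3 (log2 fold changes 1.08, 1.15, 1.25 and 1.18). In limma on log2(FPKM + 1) the log2 difference was 0.74 and the call held (limma adjusted p = 0.0489). GENCODE release 29 lists 15 CLK1 transcripts, of which 4 are coding, 8 retain an intron and 2 are targets of nonsense-mediated decay, and the count pools them.

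CLK4 (ENSG00000113240, chromosome 5, 178602664 to 178630615, minus strand) is the closest relative of CLK1 and was the least counted of the 9 genes over the 6 libraries. Its level was 3.16, 7.14 and 4.67 CPM in the control libraries, from 51, 134 and 65 counts. In the CYT libraries it was 9.45, 15.9 and 10.2 CPM, from 134, 223 and 128 counts. All CYT libraries were higher than all control libraries, and replicate 2 was the highest of each group. The mean rose from 4.99 ± 2.01 to 11.8 ± 3.52 CPM (SD, n = 3 each), a log2 fold change of 1.24 ± 0.41 or 2.36-fold with an edgeR adjusted p of 0.0456, close to the threshold. The call held without control replicate 2 and was lost without control replicate 1 or 3 or CYT replicate 1, 2 or 3, with edgeR adjusted p of 0.153, 0.140, 0.0648, 0.0915 and 0.0774 (log2 fold changes 0.98, 1.17, 1.38, 0.96 and 1.35). It was also lost without a filter on low counts and in limma on FPKM, and on log2(FPKM + 1) the log2 difference was 0.37. Of 15 annotated CLK4 transcripts, 4 are coding, 7 retain an intron and 3 are targets of nonsense-mediated decay.

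CLK2 (ENSG00000176444, chromosome 1, 155262868 to 155278491, minus strand) encodes a nuclear kinase of the same family and moved the other way. The control libraries held 27.1, 15.2 and 18.6 CPM, from 437, 286 and 259 counts. The CYT libraries held 12.5, 8.19 and 7.39 CPM, from 178, 115 and 93 counts. The groups did not overlap, but the lowest control library and the highest CYT library were close. The mean fell from 20.3 ± 6.11 to 9.38 ± 2.78 CPM (SD, n = 3 each), a log2 fold change of -1.11 ± 0.36 or 2.16-fold lower, with an edgeR adjusted p of 0.0455. The call was lost without control replicate 1 or 3 or CYT replicate 2 or 3, with edgeR adjusted p of 0.160, 0.0920, 0.0540 and 0.149 (log2 fold changes -0.87, -1.20, -1.02 and -0.94), and in 5 of the 10 alternatives that kept every library. None of its 7 annotated transcripts is listed as retaining an intron or as a target of nonsense-mediated decay. CLK2 overlaps the opposite-strand gene HCN3, which encodes a pacemaker channel subunit, by 909 bp. HCN3 had 236, 170 and 120 counts in control and 534, 524 and 372 in CYT, a log2 fold change of 1.69 with an edgeR adjusted p of 0.00542. The use of strand in counting is not given in the sources used here, so reads of the overlap cannot be assigned to either gene.

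CLK3 (ENSG00000179335, chromosome 15, 74598500 to 74645414, plus strand) is the closest relative of CLK2. Its level was 59.5, 32.1 and 64.4 CPM in control and 47.2, 38.8 and 54.3 in CYT. The CYT values lay within the range of the control values, and replicate 2 was the lowest of each group. The log2 fold change was -0.15 ± 0.34 with a 95% interval of -0.91 to 0.61 (edgeR adjusted p = 0.772), so a change of the size measured for CLK2 in the lower direction lies outside the interval. CLK3 shares 14857 bp with EDC3, a decapping factor gene on the other strand that had 1282 to 2008 counts a library, so its count carries the same uncertainty of strand.

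**Figure D2:**
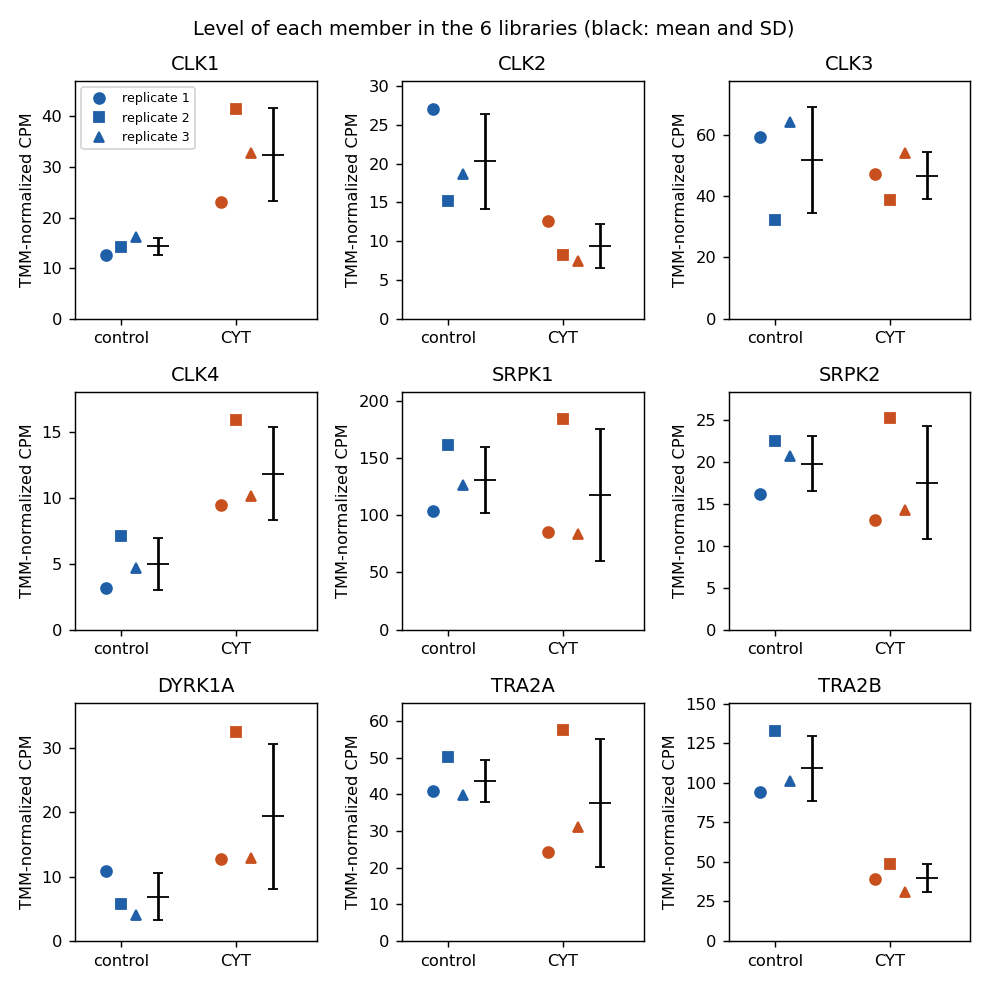
TMM-normalized CPM of each of the 9 genes in every library, with replicates 1 to 3 as circle, square and triangle, control in blue and CYT in orange, and the mean and SD in black. Control and CYT are separated for CLK1, CLK2, CLK4, DYRK1A and TRA2B, and for SRPK1, SRPK2 and TRA2A the square of replicate 2 is the highest of each group.

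The cytoplasmic kinases did not pass the test in either case. SRPK1 (ENSG00000096063, chromosome 6, 35832966 to 35921342, minus strand), a kinase of SRSF1, had 103.8, 161 and 126 CPM in control and 84.9, 184 and 83.8 in CYT. SRPK2 (ENSG00000135250, chromosome 7, 105110704 to 105399308, minus strand) had 16.2, 22.5 and 20.7 CPM in control and 13.05, 25.3 and 14.3 in CYT. In both genes CYT replicate 2 was the highest of the 6 libraries and the other CYT libraries were the lowest. The log2 fold changes were -0.15 ± 0.38 for SRPK1 (95% interval -0.99 to 0.69) and -0.17 ± 0.35 for SRPK2 (-0.96 to 0.61), with edgeR adjusted p of 0.799 and 0.744. Without CYT replicate 2 they were -0.64 and -0.54, with edgeR adjusted p of 0.101 and 0.172. SRPK1 had a log2 fold change above 0 without control replicate 2 (0.0051), CYT replicate 1 (0.033) or CYT replicate 3 (0.053).

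DYRK1A (ENSG00000157540, chromosome 21, 37365790 to 37517450, plus strand), known for its dosage effect in trisomy of its chromosome, was uneven between libraries of a group. The control libraries held 10.9, 5.80 and 3.95 CPM, from 176, 109 and 55 counts. The CYT libraries held 12.8, 32.4 and 12.9 CPM, from 181, 455 and 163 counts. The groups did not overlap, though control replicate 1 came near CYT replicates 1 and 3, and CYT replicate 2 stood far above both. The mean was 6.89 ± 3.60 CPM in control and 19.4 ± 11.3 in CYT (SD, n = 3 each), a log2 fold change of 1.49 ± 0.51 with an edgeR adjusted p of 0.0521. With the replicate number as a block the log2 fold change was 1.48 and passed the test (edgeR adjusted p = 0.0232). It also passed without control replicate 1 (1.96, edgeR adjusted p = 0.0404), and without CYT replicate 2 the log2 fold change was 0.90 (edgeR adjusted p = 0.118). It did not pass without control replicate 2 or 3 or CYT replicate 1 or 3 (edgeR adjusted p of 0.121, 0.174, 0.0535 and 0.0545), nor in limma on log2(FPKM + 1) or log2(FPKM + 0.1), with differences of 0.63 and 1.29 (limma adjusted p of 0.0835 and 0.0711).

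TRA2B (ENSG00000136527, chromosome 3, 185915906 to 185938136, minus strand) encodes a sequence-specific activator of exon inclusion and had the smallest p of the 9 genes. The control libraries held 94.1, 133 and 101 CPM, from 1518, 2495 and 1408 counts. The CYT libraries held 39.3, 48.8 and 31.2 CPM, from 557, 686 and 393 counts. Even the lowest control library was well above the highest CYT library. The mean fell from 109 ± 20.6 to 39.8 ± 8.81 CPM (SD, n = 3 each), a log2 fold change of -1.46 ± 0.31 or 2.75-fold lower, with an edgeR adjusted p of 0.00747. It was called in all 16 alternatives tried, with log2 fold changes from -1.64 to -1.10. No other gene of the table overlaps its locus. Of 16 annotated transcripts 5 are coding, 8 retain an intron and 1 is a target of nonsense-mediated decay.

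TRA2A (ENSG00000164548, chromosome 7, 23504780 to 23532041, minus strand), the paralog of TRA2B, had 40.9, 50.2 and 39.8 CPM in control and 24.3, 57.6 and 31.2 in CYT. CYT replicates 1 and 3 lay below every control library and CYT replicate 2 lay above them all. The log2 fold change was -0.21 ± 0.36 (95% interval -1.03 to 0.60, edgeR adjusted p = 0.698). It was -0.66 without CYT replicate 2 (edgeR adjusted p = 0.0775) and 0.017 without CYT replicate 1 (edgeR adjusted p = 0.982). With the correction for GC content and length it was -0.53, and -0.55 with the replicate block added (edgeR adjusted p of 0.0547 and 0.0677).

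Paralogs were also compared by the log2 ratio of their raw counts within each library, which does not depend on how libraries are scaled. For 3 against 3 libraries the exact two-sided permutation test cannot give a p under 0.1, and p was adjusted over the 4 ratios. The TRA2A to TRA2B ratio was -1.20, -1.40 and -1.35 in control and -0.69, 0.24 and -0.0037 in CYT. TRA2B thus had the more counts in every control library, while in CYT the counts were nearly equal in replicate 3 and TRA2A led in replicate 2. The difference was 1.16 ± 0.28 (SE) or 2.24-fold, with no overlap, exact permutation p = 0.1 and adjusted p = 0.2.

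The CLK2 to CLK3 ratio was -1.13, -1.08 and -1.79 in control and -1.91, -2.24 and -2.87 in CYT, a difference of -1.01 ± 0.36 with no overlap (exact permutation p = 0.1, adjusted p = 0.2). The closest value in CYT lay near the lowest in control. With all 6 libraries, the groups overlapped for the other pairs. CLK1 to CLK4 differed by -0.14 ± 0.33 (exact permutation p = 0.7, adjusted p = 0.933) and by 0.067 without control replicate 1. Without control replicate 2 the difference was -0.43 ± 0.18 (exact permutation p = 0.2), and the remaining ratios, 1.99 and 1.78 in control and 1.28, 1.38 and 1.69 in CYT, did not overlap. SRPK1 to SRPK2 differed by -0.0040 ± 0.11 (exact permutation p = 1, adjusted p = 1), with ratios from 2.55 to 2.86 in all 6 libraries, and by 0.060 without control replicate 2 and 0.074 without CYT replicate 3.

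**Figure D3:**
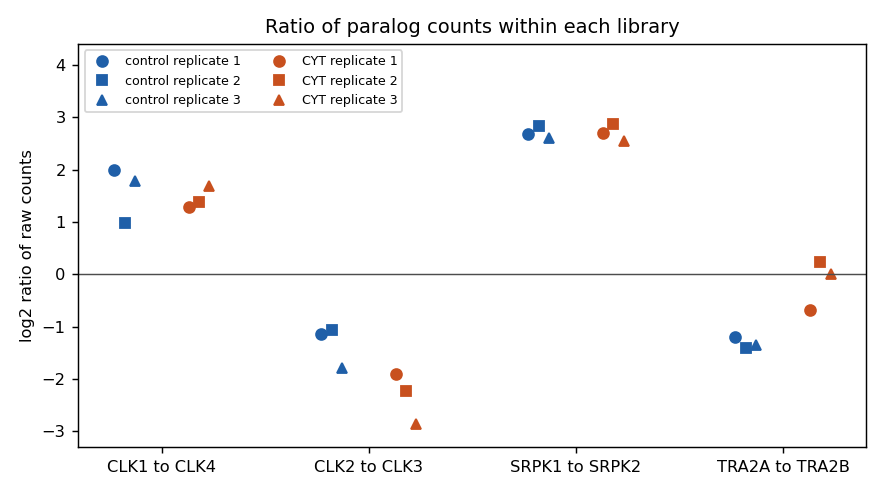
Log2 ratio of the raw counts of each paralog pair within each library, with 0.5 added to each count, control in blue and CYT in orange, and a line at equal counts. CYT lies above control for TRA2A to TRA2B (means -0.15 and -1.32) and below it for CLK2 to CLK3 (means -2.34 and -1.33), and the groups overlap for the other pairs.

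Levels can be compared between genes only per length, and the order of the 9 genes depended on the length used. In the deposited FPKM, the length by which 8 of the 9 genes were divided equals, to the base, the sum of all distinct exons in GENCODE release 29, with overlapping exons counted more than once. For CLK1 this is 12403 bp, longer than its locus of 11736 bp and 6.57 times its principal transcript of 1888 bp, and for CLK3 it is 17.1 times the principal transcript. For DYRK1A the length was 15288 bp, and its locus in the table also differs from that release. On the FPKM scale the control levels ran from SRPK1 (11.7 ± 3.32) through TRA2A (5.75), TRA2B (5.51), CLK2 (3.10), CLK3 (1.62), SRPK2 (1.53), CLK1 (1.15) and DYRK1A (0.440) to CLK4 (0.268). The ranges of TRA2A and TRA2B, of CLK3, SRPK2 and CLK1, and of DYRK1A and CLK4 overlapped between neighbours.

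On CPM per kb of principal transcript, a scale added after seeing the data, the control levels ran from TRA2B (37.1 ± 6.98) through SRPK1 (28.4), CLK3 (28.2), TRA2A (23.7), CLK2 (10.5), CLK1 (7.58), SRPK2 (5.35) and CLK4 (1.94) to DYRK1A (0.392). The first 4 overlapped between neighbours, as did CLK2 and CLK1. The last place of DYRK1A on this scale is uncertain in both groups. Its principal transcript of 17562 bp is longer than the 15288 bp by which its FPKM was divided. In CYT the order on this scale was SRPK1 (25.6), CLK3 (25.3), TRA2A (20.4), CLK1 (17.2), TRA2B (13.5), CLK2 (4.85), SRPK2 (4.74), CLK4 (4.61) and DYRK1A (1.10). There the ranges of neighbours overlapped except between TRA2B and CLK2 and between CLK4 and DYRK1A. In the CYT libraries on FPKM the order was SRPK1 (10.8), TRA2A (5.09), CLK1 (2.65), TRA2B (2.04), CLK3 (1.48), CLK2 (1.47), SRPK2 (1.38), DYRK1A (1.30) and CLK4 (0.640), with every pair of neighbours overlapping. By the means, CLK1 stood below CLK2 and TRA2B in control and above both in CYT on either scale. In CYT replicate 1 it was below TRA2B on both scales (1.86 against 1.99 FPKM, and 12.2 against 13.3 CPM per kb) and below CLK2 on FPKM (1.96).

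**Figure D4:**
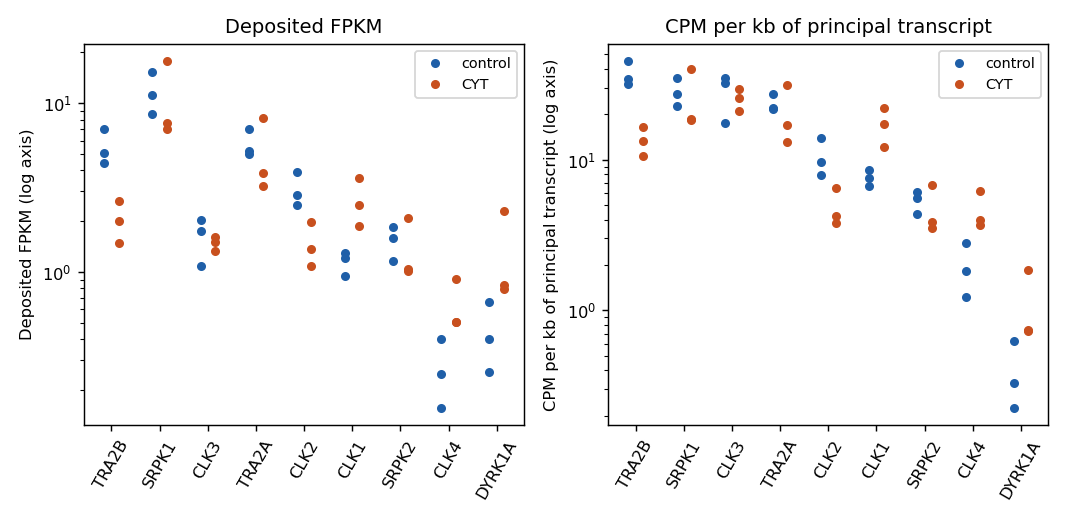
Levels of the 9 genes per length on log axes, as deposited FPKM (left) and as CPM per kb of principal transcript (right), with a point for each library, control in blue and CYT in orange. TRA2B has the highest mean in control on the right scale (37.1) and the value 5.51 on the left, below SRPK1 and TRA2A, and CLK3 moves up on the right, where its divisor is shorter.

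The make-up of the CLK family differed between the groups while its summed level was similar. These sums were chosen after the values were seen and are given without a test. The 4 CLK genes together had 48.2 ± 10.9 CPM per kb of principal transcript in control and 52.0 ± 3.53 in CYT. CLK3 alone made up a mean of 57.3% of that sum in control and 48.9% in CYT (26.05% and 24.22% on FPKM). Its count is uncertain where its locus overlaps EDC3. CLK1 and CLK4 made up 14.7%, 28.9% and 18.9% of that sum in control and 33.1%, 52.7% and 39.1% in CYT. On the FPKM scale they made up 23.7% ± 7.35 in control and 51.9% ± 11 in CYT (SD, n = 3 each), and the groups did not overlap on either scale.

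Lists of genes covered SR proteins and other RS domain proteins, related kinases, and phosphatases, import factors and SRPK1 partners. They were described by their counts of calls and medians alone. Of 11 SR proteins tested, 6 fell (54.5%) and 0 rose, where 12.9% of all genes were called lower, and the median log2 fold change was -1.18 against 0.0064 for all genes. With the replicate block 6 fell and 1 rose, and without CYT replicate 2 the number that fell was 8, where 19.8% and 17.0% of all genes were called lower. SRSF1 (a regulator of splice site choice and the study's own target, so chosen with these samples), SRSF3 and SRSF2 had the smallest adjusted p, with log2 fold changes of -2.62, -2.41 and -1.85 and edgeR adjusted p of 0.000662, 0.00159 and 0.00197. SRSF5 had a log2 fold change of 0.84 (edgeR adjusted p = 0.114), and with the replicate block it was 0.92 and passed (edgeR adjusted p = 0.0299). Without control replicate 2 it was 0.53 (edgeR adjusted p = 0.293). SRSF12 was too low to test.

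Of 24 other RS domain proteins, 1 rose and 3 fell, with a median log2 fold change of -0.54. These 4 calls are 16.7% of the list, where 28.6% of all genes were called. RSRP1, a small RS-rich protein, rose from 3.51 ± 0.30 to 13.4 ± 0.91 CPM (log2 fold change 1.93, edgeR adjusted p = 0.00256). RSRC1, an RS-rich splicing protein, fell by 1.78 on the log2 scale (edgeR adjusted p = 0.0108), ACIN1, a component of the complex left on spliced mRNA, fell by 1.24 (0.0196), and U2AF1, which recognizes the 3′ splice site, fell by 1.29 (0.0290). The value of U2AF1 is uncertain because a near-identical gene copy can share its reads. In limma on log2(FPKM + 1) the differences were smaller and the calls held. They were 0.54 for RSRP1, -0.81 for RSRC1, -0.91 for ACIN1 and -0.80 for U2AF1. The ACIN1 call was lost without control replicate 1, control replicate 3 or CYT replicate 3 (edgeR adjusted p of 0.0713, 0.0750 and 0.0703), and the U2AF1 call without control replicate 1 or 3 or CYT replicate 1 or 3 (edgeR adjusted p of 0.113, 0.0816, 0.0567 and 0.0690). With the replicate block 10 of the 24 were called, 9 of them lower, while 39.9% of all genes were called. The number was 2 without control replicate 1 or 3 or CYT replicate 3 (18.3%, 17.6% and 19.8% of all genes) and 7 without CYT replicate 2 (35.6% of all genes).

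Among 12 other kinases of the SRPK, DYRK, HIPK, PRP4 and transcription CDK families tested, DYRK3, a kinase that dissolves condensates, was the 1 called, with 0 lower and a median log2 fold change of 0.14. This is 8.33% of the list, also under the 28.6% of all genes. It had 182, 274 and 160 counts in control and 311, 686 and 378 in CYT, a log2 fold change of 1.43 with an edgeR adjusted p of 0.0172. DYRK3 rose beside CLK1 and CLK4, and like them it was highest in CYT replicate 2. The call was lost without control replicate 1 or 3 (edgeR adjusted p of 0.0705 and 0.0761, with 0 genes of the list called), 4 genes were called without CYT replicate 2, where 35.6% of all genes were, and 6 with the replicate block, 3 in each direction, where 39.9% of all genes were. SRPK3 and HIPK4 were too low to test.

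Of 16 phosphatases, import factors and SRPK1 partners, HSPA8 alone passed, a constitutive chaperone that fell by 1.10 on the log2 scale (edgeR adjusted p = 0.0190). The median of this list was -0.046, and the 6.25% called was again under the share of all genes. TNPO3, which imports phosphorylated SR proteins, had a log2 fold change of -0.56 (edgeR adjusted p = 0.188). It passed at -0.64 with the correction for GC content and length (edgeR adjusted p = 0.0376). With the replicate block added to that correction it was -0.62 and did not pass (edgeR adjusted p = 0.0658). The HSPA8 call was lost without control replicate 3, CYT replicate 1 or CYT replicate 3 (edgeR adjusted p of 0.0708, 0.0641 and 0.0791), leaving 0 genes called, while 2 were called without CYT replicate 2 and 4 with the replicate block, fits that called 35.6% and 39.9% of all genes.

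**Figure D5:**
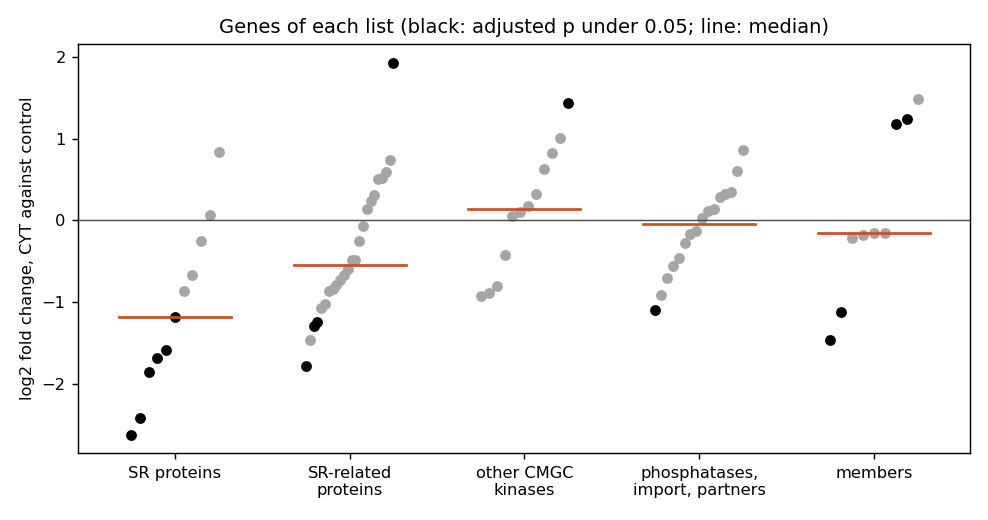
Log2 fold change of CYT against control for the tested genes of each list, sorted within the list, with called genes in black and the median as a line. The medians are -1.18 for SR proteins, -0.54 for other RS domain proteins, 0.14 for the other kinases, -0.046 for phosphatases, import factors and partners, and -0.15 for the 9 genes, of which 3 lie above 0 and 6 below.

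For each called gene, the nearest profile was sought among 11371 genes with a mean of at least 5 CPM, as the smallest root mean square difference of centred log2 CPM over the 6 libraries. TRA2B lay nearest to MMADHC (0.0548), CLK2 to STX18 (0.0933), CLK4 to C5orf34 (0.0991) and CLK1 to MCM10 (0.106). The 9 genes were left out of this search, so it does not show whether CLK1 and CLK4 were each other's nearest.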

How the data were processed

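The authors separated mRNA, sequenced it on an Illumina platform, removed low-quality, adapter and ribosomal reads and aligned the rest with Hisat2 to hg38, and the submitters' processing notes name FastQC 0.12.1. They deposited a raw count per gene and library, and an FPKM value per gene and library for which the methods name Stringtie. The program that counted reads and its use of strand are not given in the sources used here.

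Samples were grouped by their titles, 3 control and 3 CYT. Raw counts were tested with edgeR 4.0.16 (R 4.3.3) by the quasi-likelihood test, with TMM scaling, filterByExpr (minimum count 10) and Benjamini-Hochberg adjustment over 15572 genes. Depth was 13056270 to 17770102 counts a library, and the biological coefficient of variation was 37.5%. Replicates differed by more than counting error (chi-square per gene 24.8 to 148.4), so none was counted as a copy. Alternatives were upper-quartile scaling, DESeq2 1.42.0, no filter, a minimum mean of 5 CPM, limma 3.58.1 on log2(FPKM + 1) and log2(FPKM + 0.1), protein-coding genes only, a replicate block, leaving out each library, and, chosen after seeing the data, a correction for GC content and length. Scripts were tested on simulated data. Same-numbered libraries deviated together, with correlations of 0.188, 0.458 and 0.124 for replicates 1, 2 and 3, each over 0.1, which was taken as pairing. It comes from the replicate numbers of the titles and this check alone, and control 1 with CYT 3 (0.303) and control 3 with CYT 1 (0.201) correlated more than pairs 1 and 3.

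The genes and lists were chosen with earlier results of these data known. Named genes are the 9 members, SRSF1, genes overlapping a member and pseudogenes named after it, the nearest profile of each called member, marker genes, and from each list up to 3 called genes in each direction with the smallest adjusted p. SRSF5 and TNPO3 were named after their values were seen. Of the pseudogenes, CLK2P1 had at most 8 counts, SRPK2P at most 1 and CLK3P2 had 0, and of the other overlapping genes, KMT2E (at SRPK2) had 96 to 202 and RWDD4P1 22 to 58.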

Additional observations from a re-analysis of the deposited data

How the results depend on the processing

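The TRA2B call held in all 16 alternatives, and CLK3, SRPK1, SRPK2 and TRA2A were called in none. Upper-quartile scaling shifted the median over all genes (log2 fold change) from 0.0064 to 0.16. There CLK3 was at 0.00039 and CLK2, at -0.95, lost its call, while relative to that median they were at -0.15 and -1.11. CLK2 also lost its call at -1.01 under a minimum mean of 5 CPM, -0.73 and -1.04 in limma on log2(FPKM + 1) and log2(FPKM + 0.1), and -1.03 in protein-coding genes only. CLK4 lost its call at 1.15 with no filter and at 0.37 and 1.02 in limma, which called 2 members in either form, where 28.2% and 28.4% of all genes were called. DYRK1A passed at 1.66 with upper-quartile scaling, 1.52 in DESeq2, 1.41 with no filter, 1.60 under a minimum mean of 5 CPM, 1.57 in protein-coding genes only, 1.48 with the replicate block, and 1.29 and 1.40 with the correction for GC content and length without and with the block, and did not pass in limma (0.63 and 1.29) or in 5 of the 6 fits without a library. The block also brought SRSF5 past the threshold, at 0.92, and changed no other call given for a gene here and no direction. Leaving out each library gave 0.95 to 1.37 for CLK1, -1.39 to -0.87 for CLK2, -0.42 to 0.0067 for CLK3, 0.96 to 1.57 for CLK4, -0.64 to 0.053 for SRPK1, 0.90 to 1.96 for DYRK1A and -0.66 to 0.017 for TRA2A, with 1 to 3 members called, where 17.6% to 35.6% of all genes were. The fits with 3 members called, without control replicate 2 or CYT replicate 1, called 23.3% and 20.7% of all genes.

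The CLK1 to CLK4 ratio differed by 0.081 on FPKM and by -0.43 to 0.067 when each library was left out, and the SRPK1 to SRPK2 ratio by -0.084 to 0.074. Over all genes, 4451 calls became 2853 under a minimum mean of 5 CPM, 7322 and 7174 with the GC and length correction without and with the block, 6209 with the block alone (47.1%, 46.2% and 39.9% of the genes tested in these 3 fits), and 2891 to 5752 without each library. Calls among RS domain proteins were 10 with the block, 13 and 11 with the correction, and 2 to 7 without each library. For the other kinases they were 3 in DESeq2, where 33.9% of all genes were called. With the block they were 6, with the correction 6 and 7, and without each library 0 to 4. For phosphatases, import factors and partners they were 4 with the block, 6 and 3 with the correction, and 0 to 2 without each library. The cause of these changes was not tested. With 3 libraries a group, and 51 to 134 control counts of CLK4, a gene that was not called may still have changed within its interval. The size of change that could be detected was not tested.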
